A study of Mus musculus with 12 samples.

Results

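The unfolded protein response and the integrated stress response were examined in BN1-Tie2-EGFP cells through 38 genes, selected by symbol out of the 45706 genes of the TPM table. Of these genes, 21 form an ER folding arm of endoplasmic reticulum (ER) chaperones, folding and degradation factors and stress sensors, and 17 form an ATF4 arm of the transcription factor ATF4 and genes it is known to regulate. All 38 were found in the table, and all passed the filter on low values, a mean of at least 0.1 TPM over the 12 libraries. BN1 is a murine hepatoblastoma (HB) line from a tumor induced with mutant forms of β-catenin (B) and NRF2 (N), and its labelled genotype is Cdkn2a KO in every group. Its Tie2-EGFP derivative carries EGFP driven by the promoter of Tie2, the endothelial receptor tyrosine kinase encoded by Tek. The 4 groups held 3 libraries each. Unsorted cells in normoxia (21% oxygen) are called UN, and those held at 1% oxygen for 2 days are called UH. The EGFP+ cells that were sorted after hypoxia and then grown in normoxia (about 10 days) are called SN, and SH denotes the same sorted cells after a new 2-day stay at 1% oxygen. All groups came from 1 cell line. Sorted cells differ from unsorted cells in the sort, the earlier hypoxia and the expansion together, and these cannot be told apart. The labels call all 12 libraries EGFP+ BN1 cells, the unsorted ones included, so sorted and unsorted are used here only as words of the titles. The study speaks of independent replicas without saying whether these were separate cultures, and p-values measure only the spread between these libraries.

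When unfolded proteins accumulate in the ER, the sensors IRE1 (encoded by Ern1), ATF6 and PERK (encoded by Eif2ak3) are activated. IRE1 splices Xbp1 mRNA, and spliced XBP1 and cleaved ATF6 induce chaperones such as BiP (Hspa5) and GRP94 (Hsp90b1) through ER stress response elements (ERSEs) in their promoters. PERK belongs to a family of kinases that phosphorylate eIF2α in response to different stresses, among them amino acid shortage. Phosphorylated eIF2α slows general translation but favors that of ATF4, which binds CARE elements (C/EBP-ATF response elements) and induces genes of amino acid supply, redox balance and cell death. Gene-level TPM do not report Xbp1 splicing, eIF2α phosphorylation or the amount of ATF4 protein.

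Promoter sequences are shown first because the known elements of the pathways were found unevenly in the arms. Both arms were chosen as known genes of these pathways, so such unevenness can come from the choice and is not read as a result. A window of 250 bases before to 50 after the start site was found for 34 of the 38 genes in RefSeq promoter sequences of GRCm38.p6, and Manf, Hyou1, Atf6 and Aldh1l2 had none. The ERSE, spelled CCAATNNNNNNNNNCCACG and searched on both strands, occurred in 39 (0.119%) of 32817 windows of all genes. It was found in 8 of 18 genes of the ER folding arm with a window and in 0 of 16 genes of the ATF4 arm with one. The matches are written below 5′ to 3′ in the direction of the element, with the element in capitals and 10 bases on each side, and the GRCm38 coordinates are those of the capitals and the strand they lie on.
Hspa5, chr2:34772025-34772043 (+): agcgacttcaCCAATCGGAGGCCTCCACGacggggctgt
Hsp90b1, distal, chr10:86705638-86705656 (-): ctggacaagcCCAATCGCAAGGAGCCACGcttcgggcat
Hsp90b1, proximal, chr10:86705533-86705551 (+): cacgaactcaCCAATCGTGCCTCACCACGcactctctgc
Calr, chr8:84847075-84847093 (+): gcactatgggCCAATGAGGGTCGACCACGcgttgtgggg
Canx, chr11:50325800-50325818 (-): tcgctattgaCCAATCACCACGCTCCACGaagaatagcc
Pdia6, chr12:17266491-17266509 (+): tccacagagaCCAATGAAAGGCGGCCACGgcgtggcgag
Dnajc3, chr14:118937827-118937845 (+): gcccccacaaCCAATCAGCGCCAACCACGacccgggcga
Creld2, chr15:88819520-88819538 (-): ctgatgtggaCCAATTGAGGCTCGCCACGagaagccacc
Syvn1, chr19:6046532-6046550 (+): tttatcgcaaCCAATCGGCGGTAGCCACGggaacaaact

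The CARE core, spelled TGATGNAA, occurred in 3.97% of all windows, in 5 of 16 genes of the ATF4 arm and in 1 of 18 of the ER folding arm, Herpud1. The 6 matches are written in the same way.
Trib3, chr2:152344039-152344046 (+): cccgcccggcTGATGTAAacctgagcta
Asns, chr6:7693225-7693232 (-): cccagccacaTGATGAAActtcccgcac
Atf3, chr1:191183436-191183443 (+): gcggacttggTGATGCAAgtgcgagaag
Chac1, chr2:119351049-119351056 (-): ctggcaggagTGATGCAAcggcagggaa
Nupr1, chr7:126625573-126625580 (+): aagccctgtcTGATGCAAtctggccctt
Herpud1, chr8:94386317-94386324 (-): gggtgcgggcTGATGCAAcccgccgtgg

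Another element known to bind XBP1, TGACGTGG, was in 0.676% of all windows and in 0 windows of either arm. The core of the hypoxia response element, ACGTG or GCGTG, was in 43.8% of all windows, in 14 of 18 genes of the ER folding arm and in 14 of 16 of the ATF4 arm, and its GCGTG and ACGTG forms can overlap the ends of the other elements. Matches describe these windows only, and elements elsewhere were not searched.

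Values were compared with limma on log2(TPM + 1) in a fit of all 12 libraries to 18909 genes, and calls required both an adjusted p (Benjamini-Hochberg) under 0.05 and more than a 2-fold difference. Log2 fold changes refer to TPM + 1, which makes those of genes with low TPM smaller. Depth is unknown from TPM. The 8 hypoxia check genes, among them Slc2a1, Vegfa and Bnip3, gave 7 called higher in each hypoxia comparison. Hepatocyte markers (10 genes) summed to between 107 and 224 TPM per library, mostly Krt18, Krt8 and Trf, whereas Alb was at most 4.23 TPM and Ttr at most 0.474 TPM. They did not move together: in SN vs UN Trf and Afp were called higher and Krt8, Hnf4a and Alb lower. SH vs UH had Trf and Afp called higher and Krt8 lower. Hnf4a was called lower in UH vs UN and Krt8 higher in SH vs SN. Endothelial markers (10 genes) summed to 9.48 to 42.2 TPM in UN, 36.9 to 46.2 in UH, 5.03 to 5.67 in SN and 13.0 to 17.0 in SH, mostly Eng in unsorted cells. Pecam1 and Cdh5 stayed under 0.5 TPM in every library, whereas Tek was at most 0.226 TPM in unsorted and 2.07 to 3.29 TPM in sorted cells. Of these 10 genes, Eng and Plvap were called higher in UH vs UN, and Eng, Plvap and Vwf in SH vs SN. In sorted against unsorted cells Tek was called higher and Eng lower in both comparisons, and Plvap was called higher in normoxia. Fibroblast markers (10 genes) summed to 1175 to 5163 TPM in UN, 4852 to 7133 in UH, 200 to 210 in SN and 50.5 to 66.6 in SH. They did not move as 1 group: in UH vs UN the collagens Col1a1, Col1a2 and Col3a1 were called higher and Pdgfra, Pdgfrb and Dcn lower. Of the same list, SH vs SN had Col1a1 called higher and Acta2, Pdgfrb and Dcn called lower. The part of these markers in the differences between groups was not tested. Macrophage and leukocyte markers (6 genes) summed to 88.4 to 117 TPM in UN, 46.1 to 49.7 in UH, 304 to 345 in SN and 125 to 135 in SH. These sums were mostly Cd14, with Ptprc under 0.13 TPM in every library. Cd14 was called lower and Cd68 higher in both hypoxia comparisons, and Csf1r was called higher in UH vs UN. In sorted against unsorted cells Cd14 and Cd68 were called higher in both comparisons. A smaller share of one cell type and less RNA per cell cannot be told apart in these bulk libraries.

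Several libraries stood apart from their groups. UN 1 was highest of its group in 9 of 10 fibroblast markers, with a sum of 5163 TPM against 1323 and 1175. It was also highest of its group in 11 of 17 genes of the ATF4 arm. SN 3 was highest of its group in 6 of the 7 hypoxia check genes detected there and in 9 of 17 genes of the ATF4 arm. SH 3 was lowest of its group in 6 of 8 hypoxia check genes. In the ER folding arm, UH 1 was lowest of its group in 17 of 21 genes, SN 2 in 14, SH 3 in 13 and UN 1 in 12. Mitochondrially encoded transcripts took 6.10% ± 1.27 (SD, n = 3) of the TPM in UN, 2.11% ± 0.43 in UH, 8.10% ± 0.40 in SN and 3.43% ± 1.10 in SH. Genes above 0 numbered 21666 to 22369 in SH and 18901 to 20251 in the other groups. The part of these shares and gene numbers in the results was not tested, except that leaving out mitochondrially encoded transcripts left the counts of calls of both arms as they were in all 5 comparisons.

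Calls in hypoxia lay mainly in the ATF4 arm. In UH vs UN, 8 of 17 genes of the ATF4 arm were called higher and 1 lower, whereas 1 of 21 genes of the ER folding arm was called higher and 1 lower. Over all genes tested, 5.46% were called higher and 11.8% lower in this comparison. In SH vs SN, 9 genes of the ATF4 arm were called higher and 1 lower, and 0 of the ER folding arm were called by limma. At an unadjusted p under 0.05, 4 of the ER folding arm were higher and 5 lower, where 25.5% of all genes were higher and 22.9% lower. The background in SH vs SN was 7.47% higher and 5% lower. The median log2 fold change of the ATF4 arm was 1.09 in UH vs UN and, for SH vs SN, 1.28, beside medians of −0.19 and 0.03 over all genes. That of the ER folding arm was −0.21 and 0.03. After median-of-ratios scaling, which brings the median of all genes in UH vs UN to 0, the ER folding arm had a median of 0.15 and the ATF4 arm one of 1.43.

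**Figure D1:**
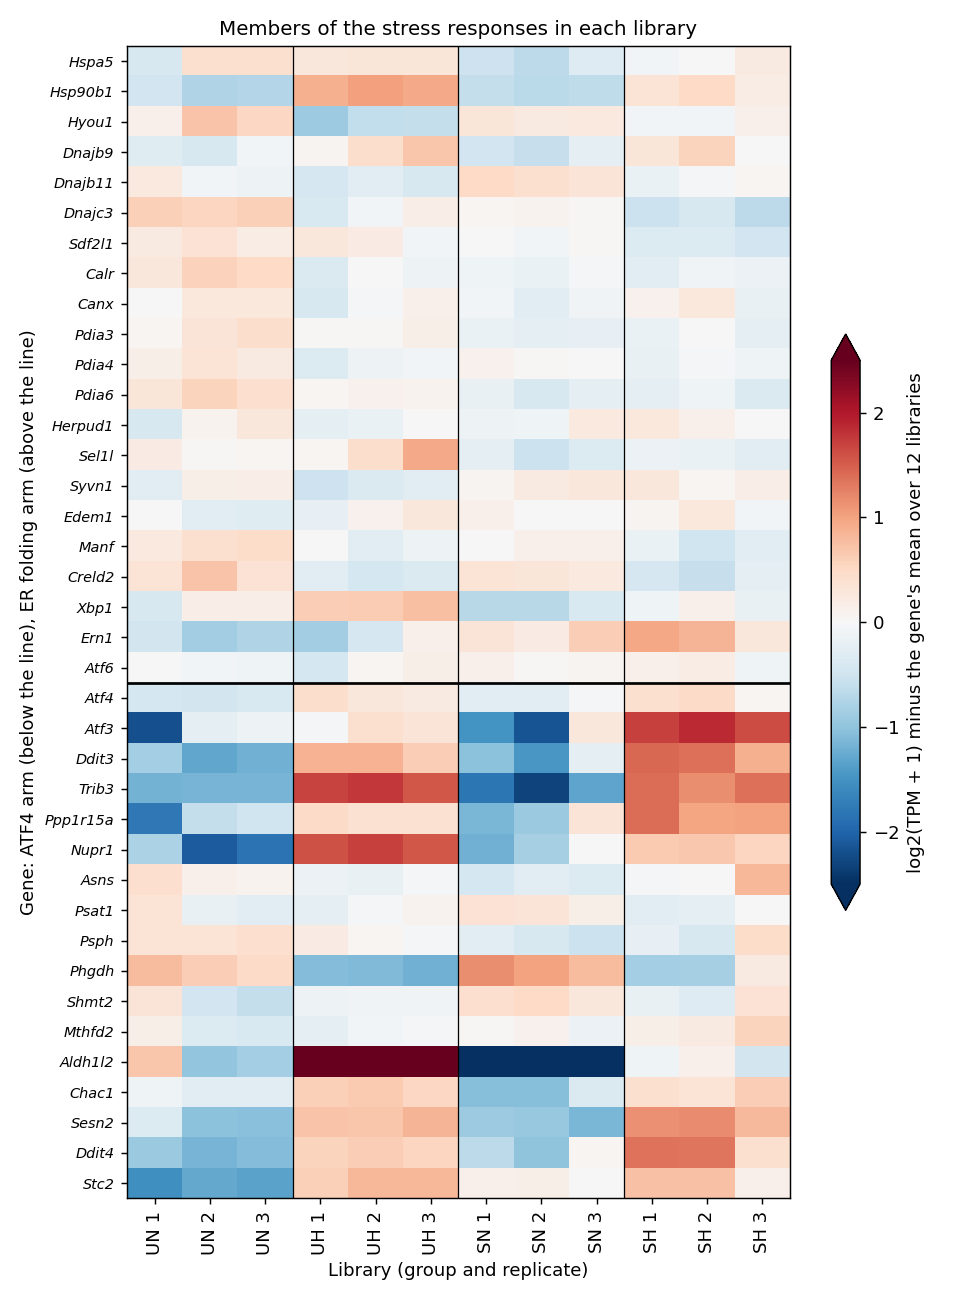
Heat map of 38 genes (rows, the ER folding arm above the horizontal line and the ATF4 arm below it) in 12 libraries (columns), colored by log2(TPM + 1) minus the gene's mean over the libraries, with colors saturating beyond ±2.5. Most of the ATF4 arm is higher in UH and SH than in UN and SN, Phgdh runs the other way, and the ER folding arm shows a like pattern mainly in Hsp90b1, Xbp1 and Dnajb9.

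Hsp90b1 encodes GRP94, the ER member of the HSP90 family (GRCm38 chr10:86690209-86705509, minus strand). It measured 763, 632 and 641 TPM in UN, 1981, 2171 and 2069 in UH, 704, 666 and 683 in SN, and 1346, 1499 and 1206 in SH. All hypoxic libraries lay above all normoxic ones, and the UH libraries lay above the SH libraries. Hsp90b1 rose in UH vs UN by a log2 fold change of 1.61 ± 0.11 (SE, adjusted p = 4.9e-07), the only gene of its arm called higher there. In SH vs SN the change was 0.98 (adjusted p = 3e-05), just under the fold threshold, and it was 1.05 without SH 3. The hypoxia response was smaller in sorted cells by 0.64 on the log2 scale (adjusted p = 0.012), which did not reach the fold threshold. Exons of Hsp90b1 overlap those of 1810014B01Rik on the opposite strand and of Gm15344 on the same strand, so part of its reads could belong to these models.

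Hspa5 encodes BiP, the ER HSP70 and the usual marker of ER stress (chr2:34771970-34777547, plus strand). Its levels were 620, 1083 and 1081 TPM in UN, 1000, 1016 and 1013 in UH, 570, 520 and 658 in SN, and 786, 827 and 956 in SH. The UH values lay inside the range of UN, and the SH values lay above those of SN. The log2 fold change was 0.17 in UH vs UN (adjusted p = 0.51) and 0.56 in SH vs SN (adjusted p = 0.034), and Hspa5 was called in neither. UN 1 decided the spread of the UN group, with a value of 620 TPM against over 1000 in the other libraries. Without it the change of Hspa5 in UH vs UN was −0.10 (adjusted p = 0.51). After median-of-ratios scaling Hspa5 was higher in UH vs UN at an adjusted p under 0.05, with no fold threshold. Over all alternatives its change there ran from −0.10 to 0.52, so the result for unsorted cells depended on the scaling.

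Hyou1, the nucleotide exchange factor GRP170 that works with BiP (chr9:44379490-44392369, plus strand), went the other way. It measured 112, 169 and 148 TPM in UN, 54.7, 66.9 and 67.2 in UH, 127, 120 and 122 in SN, and 97.7, 98.0 and 112 in SH. Hypoxic libraries were lower than normoxic ones within unsorted and within sorted cells. Hyou1 fell in UH vs UN by a log2 fold change of −1.16 ± 0.14 (SE, adjusted p = 4.2e-05), but by −0.81 after median-of-ratios scaling, under the fold threshold. In SH vs SN it was −0.26 (adjusted p = 0.17). The difference between these responses was 0.90 (adjusted p = 0.0087), also under the fold threshold.

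None of the other folding and degradation genes of the arm was called in a hypoxia comparison. They comprise the chaperones and cochaperones Dnajb9, Dnajb11, Dnajc3, Sdf2l1, Calr and Canx, the disulfide isomerases Pdia3, Pdia4 and Pdia6, and the secreted factors Manf and Creld2. The genes of ER-associated degradation (ERAD) are Herpud1, Sel1l, Syvn1 and Edem1. Calr, the lectin chaperone calreticulin, was the most abundant gene of both arms per unit of transcript length, with a mean of 1566 TPM over the 12 libraries. It ran from 1860 to 2283 TPM in UN and from 1190 to 1527 in UH, a log2 fold change of −0.61 (adjusted p = 0.0012) that did not reach the fold threshold. Over the alternatives this change ran from −0.85 to −0.26, with an adjusted p of at most 0.11. In sorted cells Calr ran from 1368 to 1483 TPM in SN and from 1257 to 1443 in SH, and these ranges overlapped. Creld2 had mean levels of 53.8 TPM in UN, 29.6 in UH, 47.1 in SN and 28.5 in SH, with log2 fold changes of −0.83 and −0.71 (adjusted p = 1.4e-04 and 6.1e-04). Dnajb9, the BiP cochaperone ERdj4 and a known target of spliced XBP1, had changes of 0.66 and 0.71 (adjusted p = 0.012 and 0.0095). The 4 ERAD genes had log2 fold changes between −0.39 and 0.38 in UH vs UN and between −0.02 and 0.18 in SH vs SN.

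Without a fold threshold, the direction of the ER folding arm in unsorted cells depended on the scaling. With TPM as deposited, 3 of its genes were higher in UH vs UN (Hsp90b1, Dnajb9 and Xbp1) and 9 were lower at an adjusted p under 0.05, where 13% of all genes were higher and 33.5% lower. After median-of-ratios scaling 8 were higher (Hsp90b1, Dnajb9, Xbp1, Ern1, Sel1l, Atf6, Hspa5 and Edem1) and 3 lower (Dnajc3, Creld2 and Hyou1). With that scaling 21.7% of all genes were higher and 21.1% lower. Without UH 1, a setting chosen after seeing the data, 5 were higher and 8 lower with TPM as deposited. In SH vs SN, 4 were higher (Hsp90b1, Dnajb9, Xbp1 and Hspa5) and 5 lower (Creld2, Dnajc3, Dnajb11, Manf and Sdf2l1) with TPM as deposited, beside 21.5% and 19.5% of all genes. After scaling 4 were higher and 4 lower, beside 22.9% and 20.2% of all genes, and without SN 2, likewise chosen after seeing the data, the higher ones numbered 2 (Hsp90b1 and Dnajb9) and the lower ones 5. By the same measure the ATF4 arm had 10 higher and 1 lower in UH vs UN under both scalings. For sorted cells it had 12 higher and 2 lower as deposited and 12 and 1 after scaling. The direction of Hsp90b1, Dnajb9, Xbp1, Hyou1, Creld2 and Dnajc3 in UH vs UN was the same under both scalings, whereas the balance of the ER folding arm, like that of all genes, moved with the scaling.

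Hsp90b1 took up a larger share of the arm's summed TPM in hypoxia. The sum of the 21 genes was 6662 ± 695 TPM (SD, n = 3) in UN, 6890 ± 427 in UH, 5074 ± 213 in SN and 5964 ± 319 in SH. Hsp90b1 made up 10.3% ± 2.3 (SD, n = 3) of the sum in UN and 30.1% ± 1.0 in UH, and 13.5% ± 0.44 in SN and 22.6% ± 1.4 in SH. Without Hsp90b1 the sums were 5984 ± 769 TPM in UN, 4816 ± 350 in UH, 4390 ± 202 in SN and 4613 ± 193 in SH. The UN and UH ranges of this remainder did not overlap (5098 to 6472 and 4417 to 5064 TPM), and those of SN and SH did (4175 to 4574 and 4463 to 4831 TPM). These sums are of TPM as deposited and were not rescaled. Calr, the largest part of the remainder, was not lower in UH vs UN at an adjusted p under 0.05 after median-of-ratios scaling. The sum of the ATF4 arm was 1431 ± 152 TPM in UN, 2553 ± 75.6 in UH, 1742 ± 145 in SN and 2580 ± 95.3 in SH.

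**Figure D2:**
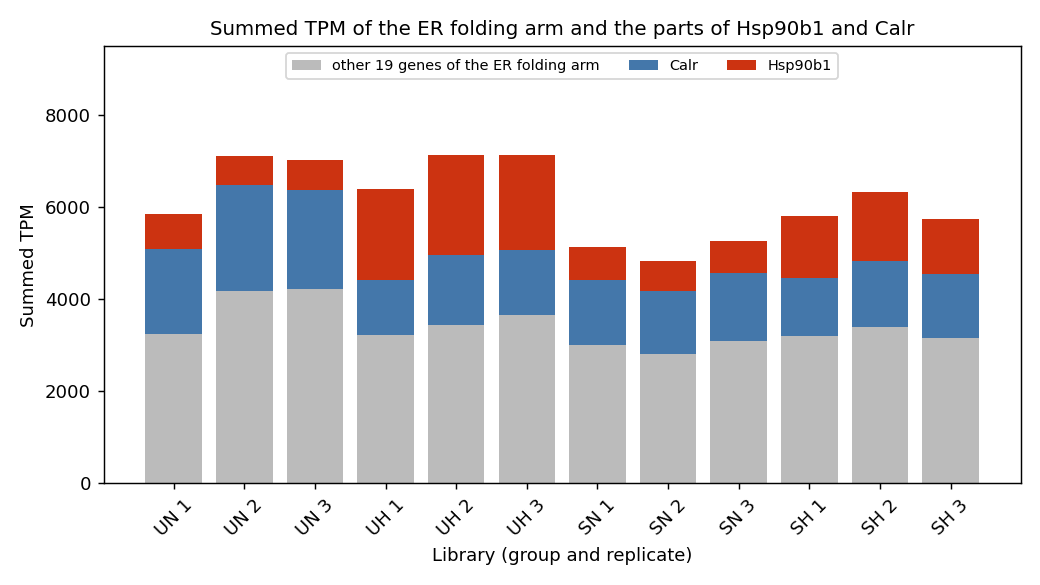
Stacked bars of the summed TPM (vertical axis, from 0) of the 21 genes of the ER folding arm in each of 12 libraries (horizontal axis), split into Hsp90b1, Calr and the other 19 genes. The part of Hsp90b1 grows from 10.3% of the sum in UN to 30.1% in UH and from 13.5% in SN to 22.6% in SH.

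Among the sensors and transcription factors, Xbp1 encodes the factor whose mRNA IRE1 splices (chr11:5520659-5525893, plus strand). Xbp1 measured 57.2, 84.8 and 85.4 TPM in UN, 116, 118 and 128 in UH, 46.4, 46.2 and 58.0 in SN, and 69.7, 82.7 and 66.7 in SH. Hypoxic libraries were higher than their normoxic counterparts in every case, and sorted cells were lower than unsorted cells in hypoxia. The log2 fold change was 0.68 in UH vs UN (adjusted p = 0.0036) and 0.53 in SH vs SN (adjusted p = 0.017), both under the fold threshold, and 1.04 in UH vs UN after median-of-ratios scaling.

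Ern1, which encodes IRE1, differed with sorting and, with TPM as deposited, not detectably with hypoxia (chr11:106394650-106487852, minus strand). It measured 12.01, 8.75 and 9.64 TPM in UN, 8.83, 12.4 and 18.6 in UH, 21.4, 19.5 and 26.3 in SN, and 33.8, 31.4 and 20.9 in SH. Every sorted library was above every unsorted one, and SN and SH overlapped, as did UN and UH. Ern1 was higher in sorted cells, both in SN vs UN (log2 fold change 1.07 ± 0.25, SE, adjusted p = 0.0059) and in SH vs UH (1.09 ± 0.25, adjusted p = 0.0044). Both values lie near the fold threshold. SN vs UN was 0.98 without UN 2 and 0.96 without SN 3, and SH vs UH was 0.85 without UH 1, 0.96 without SH 1 and 0.88 after median-of-ratios scaling. After median-of-ratios scaling Ern1 was higher in UH vs UN at an adjusted p under 0.05, with no fold threshold. Over the alternatives its change there ran from 0.05 to 0.65. Atf6 stayed between 10.4 and 16.4 TPM in all libraries.

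In the ATF4 arm, Atf4 itself (chr15:80255184-80257541, plus strand) measured 240, 235 and 249.4 TPM in UN, 441, 393 and 377 in UH, 269, 267 and 316 in SN, and 426, 450 and 337 in SH. All hypoxic libraries were above all normoxic ones. The log2 fold change was 0.74 in UH vs UN (adjusted p = 3.3e-04) and 0.50 in SH vs SN (adjusted p = 0.0051), under the fold threshold in both, and 1.09 in UH vs UN after median-of-ratios scaling.

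Of the 5 feedback genes of ATF4 examined, 4 were called higher in UH vs UN, and all 5 were in SH vs SN. Trib3 encodes a pseudokinase that binds AKT and ATF4 (chr2:152337422-152344032, minus strand). It measured 11.3, 11.4 and 11.5 TPM in UN, 89.0, 93.3 and 80.3 in UH, 6.98, 4.60 and 10.2 in SN, and 71.8, 61.4 and 70.8 in SH. Trib3 rose by a log2 fold change of 2.83 ± 0.20 (SE, adjusted p = 6.5e-07) in UH vs UN and by 3.12 ± 0.20 (adjusted p = 5.8e-07) in SH vs SN, with the lowest hypoxic library several times above the highest normoxic one. Ddit3 encodes CHOP, a factor linked to cell death under ER stress (chr10:127290774-127296288, plus strand). Its levels were 101, 74.0 and 79.6 TPM in UN, 336, 338 and 281 in UH, 90.4, 66.5 and 158 in SN, and 496, 482 and 340 in SH. Ddit3 rose by 1.90 ± 0.26 (adjusted p = 1.1e-04) and 2.13 ± 0.26 (adjusted p = 7.1e-05) on the log2 scale. Its exons overlap Mars and Gm4189 on the opposite strand and a second model of the same symbol, and the strand setting of the counting is not given in the sources used here.

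Ppp1r15a encodes GADD34, which directs the dephosphorylation of eIF2α (chr7:45522916-45526268, minus strand). It measured 41.0, 94.4 and 101 TPM in UN, 202, 189 and 188 in UH, 65.1, 75.3 and 181 in SN, and 383, 285 and 289 in SH. Ppp1r15a rose by 1.38 ± 0.38 (SE, adjusted p = 0.010) in UH vs UN and by 1.70 ± 0.38 (adjusted p = 0.0036) in SH vs SN, but the first of these was 0.97 without UN 1. Atf3, a stress-induced transcription factor (chr1:191170296-191218039, minus strand), varied widely within the normoxic groups. It measured 7.94, 34.3 and 36.6 TPM in UN, 39.5, 53.3 and 50.6 in UH, 13.6, 8.22 and 49.1 in SN, and 133, 148 and 127 in SH. The UH range began just above that of UN, and all SH libraries lay above all others. Atf3 rose in SH vs SN (2.85 ± 0.60, adjusted p = 0.0025) and had a log2 fold change of 1.09 ± 0.60 in UH vs UN (adjusted p = 0.16), which was 0.41 (adjusted p = 0.56) without UN 1. The difference of these responses was 1.76 (adjusted p = 0.15). It was 2.44 (adjusted p = 0.025) without UN 1, 2.47 (adjusted p = 0.036) without SN 3 and 3.19 (adjusted p = 5.1e-04) without UN 1, SN 3 and SH 3, an alternative chosen after seeing the data.

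Nupr1, a small stress-induced chromatin protein (chr7:126623249-126630861, minus strand), rose in both hypoxia comparisons, and more in unsorted cells. It measured 79.2, 31.6 and 37.5 TPM in UN, 415, 451 and 404 in UH, 59.5, 76.5 and 138 in SN, and 218, 219 and 200 in SH. The log2 fold change was 3.19 ± 0.32 (SE, adjusted p = 1.1e-05) in UH vs UN and 1.30 ± 0.32 (adjusted p = 0.0070) in SH vs SN. The difference between these responses was −1.89 ± 0.46 (adjusted p = 0.013), but its adjusted p was 0.072 with no filter on low values.

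**Figure D3:**
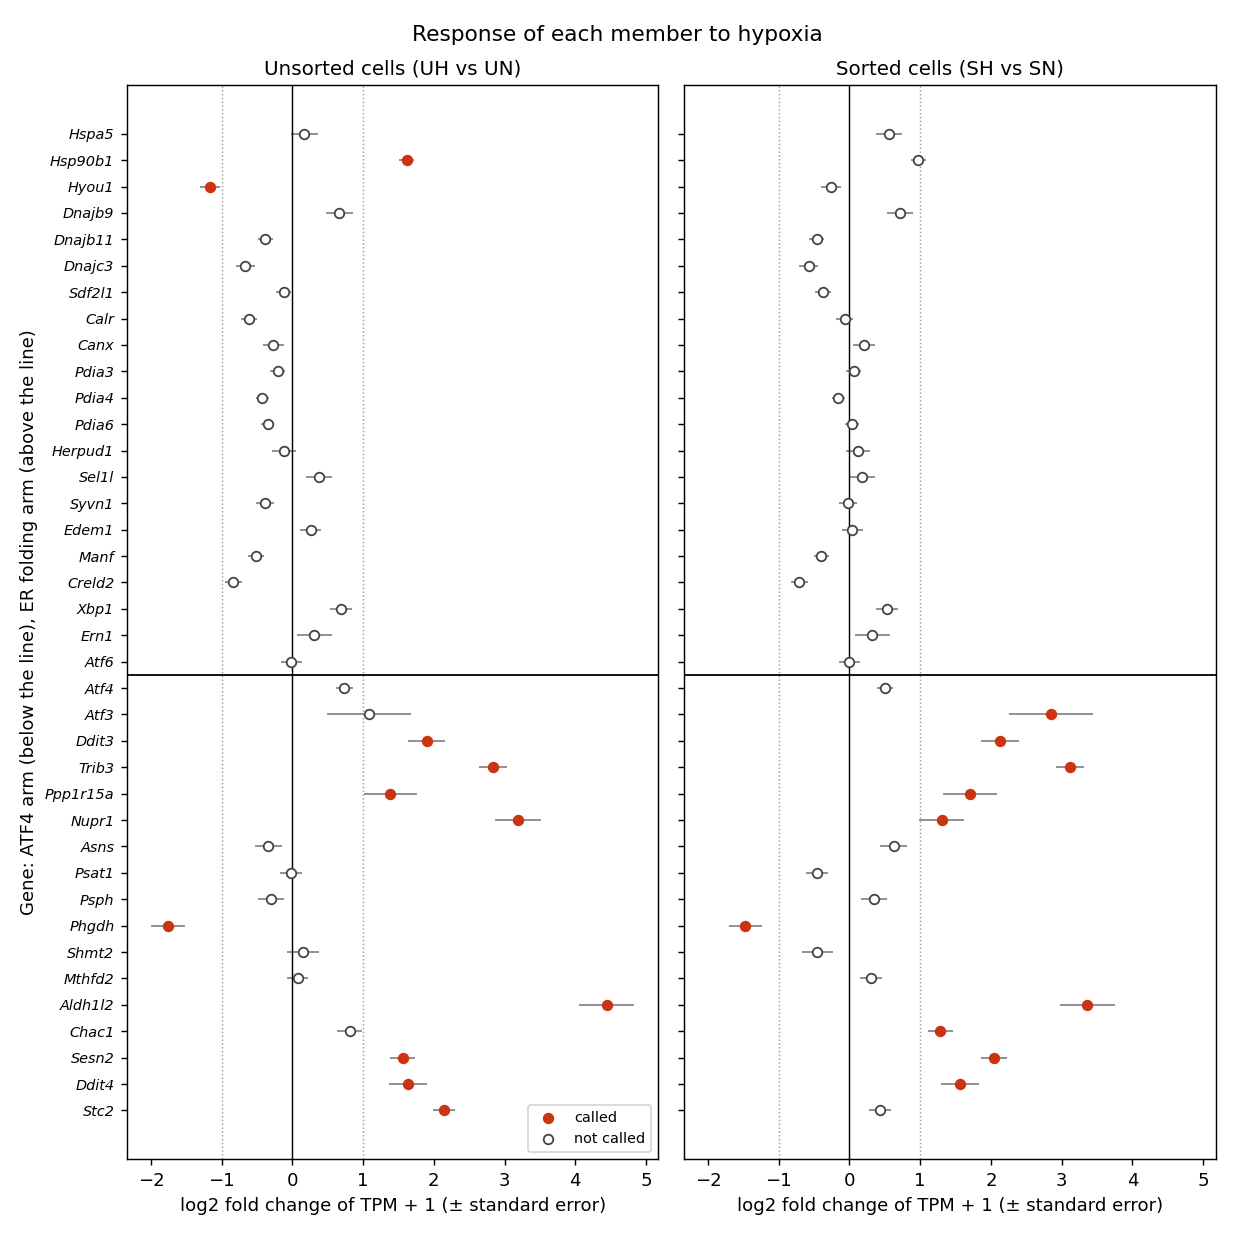
Log2 fold change of TPM + 1 (horizontal axis, bars are standard errors) of the 38 genes (vertical axis) in unsorted cells (left) and sorted cells (right). Filled points are called, open points are not, and dotted lines mark the fold threshold. The called points gather in the ATF4 arm, 9 of its 17 genes on the left and 10 on the right, and Phgdh is the only one of them below 0.

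The genes of serine and asparagine synthesis did not follow the feedback genes. Phgdh, the first enzyme of serine synthesis from glycolytic 3-phosphoglycerate (chr3:98313170-98339990, minus strand), fell in both hypoxia comparisons. It measured 394, 349 and 316 TPM in UN, 106, 105 and 98.4 in UH, 509, 454 and 394 in SN, and 125, 127 and 266 in SH. All hypoxic libraries were below all normoxic ones, and SH 3 was the highest of them. The log2 fold change was −1.76 ± 0.24 (SE, adjusted p = 8.9e-05) in UH vs UN and −1.47 ± 0.24 (adjusted p = 4.5e-04) in SH vs SN, the latter being −1.83 without SH 3. Psat1 and Psph, which complete the pathway, were called in none of the 5 comparisons. Psat1 had means of 208, 203, 258 and 188 TPM in UN, UH, SN and SH, and Psph had means of 44.5, 36.0, 25.9 and 34.2 TPM. Asns, asparagine synthetase and a classical CARE-driven gene, had means of 94.3 TPM in UN, 73.8 in UH, 62.7 in SN and 101 in SH, the last with libraries at 79.0, 81.3 and 143. Its log2 fold change was −0.34 in UH vs UN (adjusted p = 0.17) and 0.63 in SH vs SN (adjusted p = 0.020), and the difference of 0.97 (adjusted p = 0.025) was just under the fold threshold. It passed the threshold without any 1 of 6 libraries, with values up to 1.12 without SH 1. In SH 3, Phgdh, Asns, Psph, Psat1, Shmt2 and Mthfd2 were each the highest of the SH libraries. Without SH 3 the change of Asns in SH vs SN was 0.35 and its difference between the responses was 0.69.

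Of the mitochondrial one-carbon enzymes, Shmt2 and Mthfd2 were called in no comparison, with means between 103 and 156 TPM and between 41.6 and 58.5 TPM in the 4 groups. Aldh1l2, which oxidizes 10-formyltetrahydrofolate in mitochondria (chr10:83487450-83534140, minus strand), was called in 4 of 5. It measured 22.6, 6.39 and 7.13 TPM in UN, 161, 273 and 329 in UH, 0.254, 0.215 and 0.383 in SN, and 12.6, 14.9 and 9.67 in SH. Hypoxic libraries were above normoxic ones in unsorted and in sorted cells, but SH lay at the level of UN. Aldh1l2 rose by a log2 fold change of 4.44 ± 0.39 (SE, adjusted p = 3.6e-06) in UH vs UN and by 3.37 ± 0.39 (adjusted p = 4.6e-05) in SH vs SN. It was lower by −3.13 (adjusted p = 1.0e-04) in SN vs UN and by −4.21 (adjusted p = 7.5e-06) in SH vs UH. The difference between the hypoxia responses was −1.08 (adjusted p = 0.18), and −1.61 (adjusted p = 0.0071) without UN 1. Over all alternatives this difference ran from −1.61 to 0.45, so its sign was not stable. The change in SH vs SN ran from 3.23 to 5.03, and all SN libraries lay under the pseudocount of 1. As ratios of mean TPM, the rise was 21.1-fold in UH vs UN, or 37.6-fold without UN 1, and 43.6-fold in SH vs SN. On the log2(TPM + 1) scale UH vs UN was 4.98 without UN 1. Of the fibroblast markers, Col1a1, Col1a2 and Col3a1 were likewise called higher in UH vs UN, lower in sorted than in unsorted cells, and higher in UN 1 than in UN 2 and UN 3. Pdgfra, Pdgfrb and Dcn were lower in UH vs UN. The part of these markers in the Aldh1l2 values was not tested. Its exons overlap D10Wsu102e on the opposite strand.

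Of the other stress outputs, 3 of 4 were called higher in each hypoxia comparison. Sesn2 encodes sestrin 2, a leucine sensor that restrains mTORC1 (chr4:132492032-132510501, minus strand). It measured 16.6, 9.99 and 9.89 TPM in UN, 35.9, 35.3 and 39.2 in UH, 11.01, 10.7 and 9.14 in SN, and 48.7, 49.9 and 38.2 in SH, with log2 fold changes of 1.56 ± 0.18 (SE, adjusted p = 2.9e-05) and 2.04 ± 0.18 (adjusted p = 6.7e-06). Ddit4 encodes REDD1, which also restrains mTORC1 and is a target of both ATF4 and HIF-1 (chr10:59949669-59951834, minus strand). Its levels were 49.5, 41.9 and 44.3 TPM in UN, 141, 146 and 138 in UH, 60.4, 47.1 and 98.3 in SN, and 245, 241 and 126 in SH. SN 3 was the highest and SH 3 the lowest of their groups, and the groups still did not overlap. Ddit4 rose by 1.63 ± 0.27 (adjusted p = 4.1e-04) and 1.56 ± 0.27 (adjusted p = 7.3e-04), the latter being 1.88 without SH 3. Chac1 encodes an enzyme that degrades glutathione (chr2:119351229-119354381, plus strand). It measured 13.6, 11.97 and 12.1 TPM in UN, 22.7, 23.9 and 21.5 in UH, 6.49, 6.57 and 11.3 in SN, and 19.7, 18.99 and 23.2 in SH. Chac1 was called in SH vs SN (1.28 ± 0.18, adjusted p = 1.6e-04), and its change in UH vs UN was 0.81 (adjusted p = 0.0028), or 1.14 after median-of-ratios scaling.

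Stc2, a secreted glycoprotein induced by ER stress and hypoxia (chr11:31357307-31370074, minus strand), responded more in unsorted cells, by the test of the difference. It measured 10.6, 13.1 and 12.4 TPM in UN, 50.4, 59.6 and 59.1 in UH, 36.2, 36.5 and 33.3 in SN, and 55.1, 55.6 and 35.9 in SH. SN lay well above UN, and SH 3 lay within the range of SN. Stc2 rose by a log2 fold change of 2.14 ± 0.16 (SE, adjusted p = 1.0e-06) in UH vs UN and had a change of 0.43 (adjusted p = 0.046) in SH vs SN. The difference was −1.71 ± 0.22 (adjusted p = 4.7e-04), and −1.50 (adjusted p = 2.0e-04) without SH 3. In normoxia Stc2 was higher in sorted than in unsorted cells by 1.48 ± 0.16 (adjusted p = 3.1e-05).

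**Figure D4:**
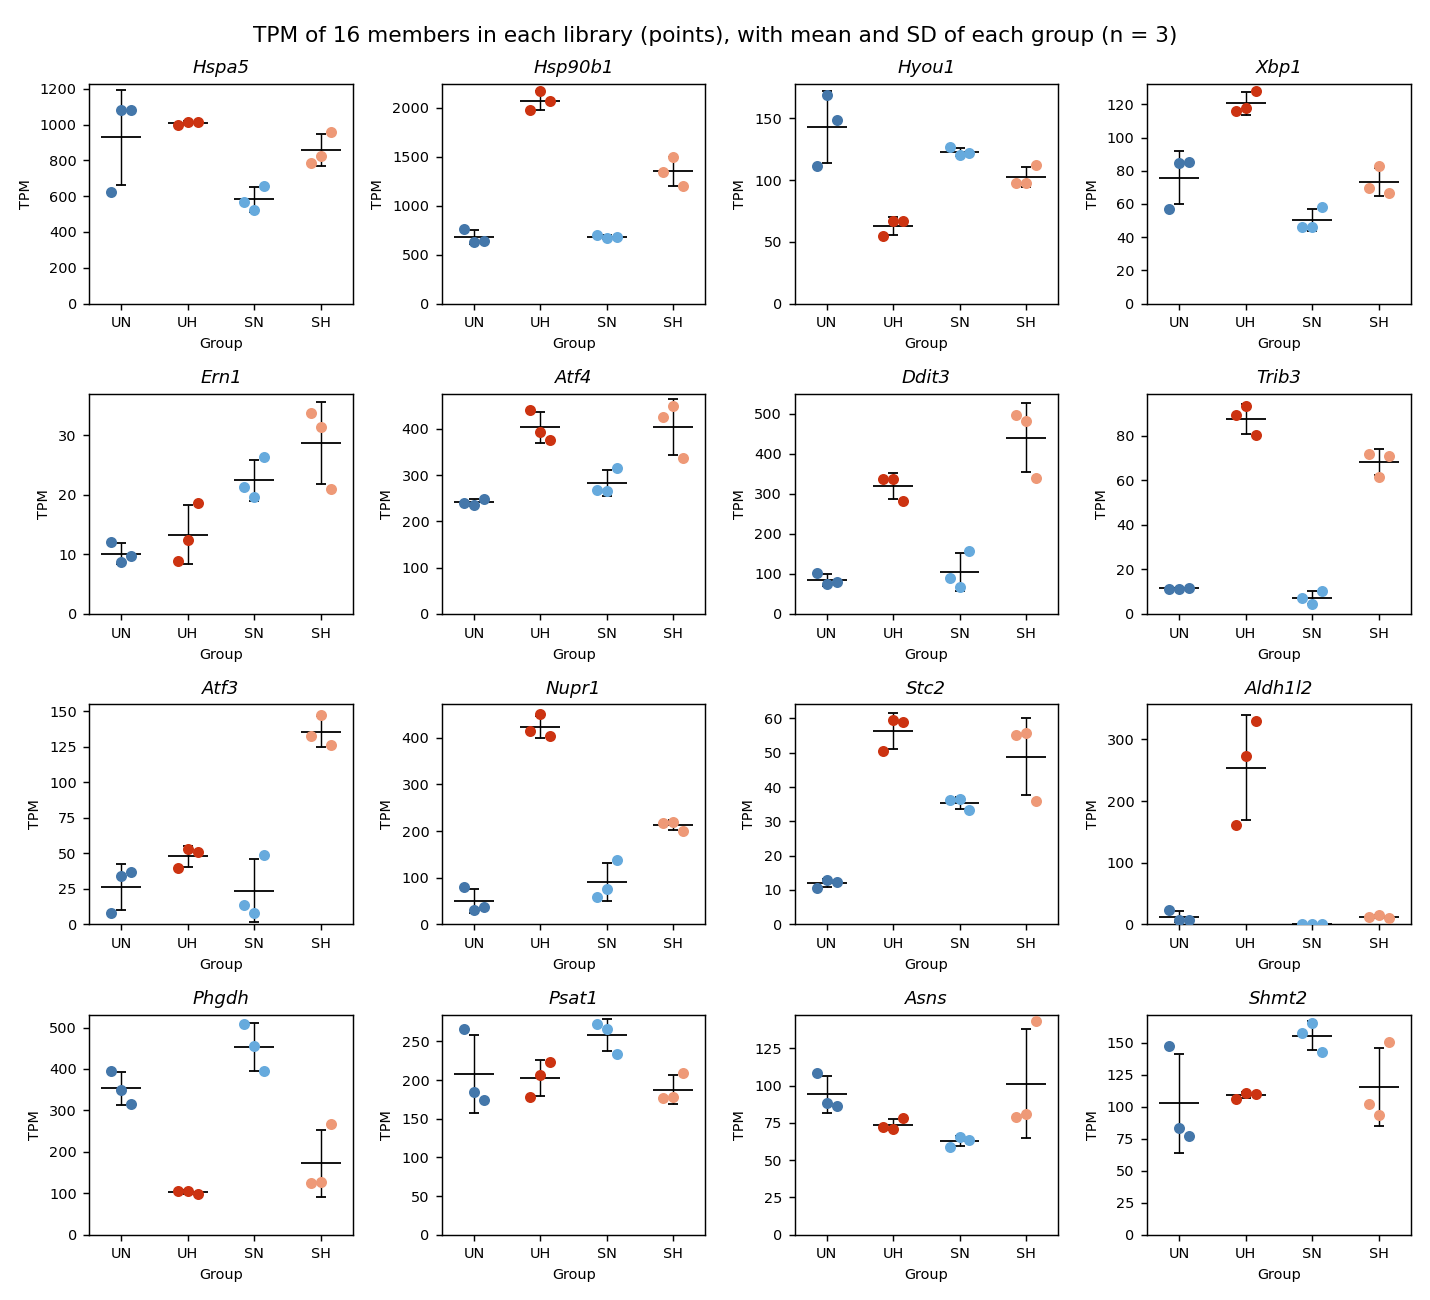
TPM (vertical axes, from 0) of 16 genes in the 3 libraries (points, replicates 1 to 3 from left to right) of each of the 4 groups (horizontal axes), with the mean as a horizontal line and the SD as an error bar. Trib3, Ddit3 and Atf4 are higher in UH and SH than in UN and SN, Phgdh is lower, Ern1 differs between unsorted and sorted cells, and Nupr1 and Aldh1l2 are highest in UH.

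Taking both hypoxia comparisons, which share no library, 7 genes of the ATF4 arm were called higher in both (Aldh1l2, Trib3, Ddit3, Sesn2, Ppp1r15a, Ddit4 and Nupr1). Stc2 was called only in UH vs UN, and Atf3 and Chac1 only in SH vs SN, of which only Stc2 differed between the responses by the test of the difference. Phgdh was called lower in both, and 0 genes were called in opposite directions. In the test of the difference, 2 genes of the ATF4 arm were called lower (Nupr1 and Stc2) and 0 higher, and in the ER folding arm 0 were called. At an unadjusted p under 0.05, 2 genes of the ATF4 arm were higher and 2 lower, and 3 of the ER folding arm were higher and 1 lower, beside 28.7% and 7.6% of all genes. The background of calls was 8.08% higher and 2.18% lower. Of the 5 genes of the ATF4 arm with a CARE match, 2 were called higher in UH vs UN (Trib3 and Nupr1) and 4 in SH vs SN, all but Asns. In the whole arm 8 of 17 and 9 of 17 were called higher. Of the 8 genes of the ER folding arm with an ERSE match, Hsp90b1 was called higher in UH vs UN, where the other 7 had log2 fold changes between −0.83 and 0.17. By limma 0 of the 8 were called in SH vs SN, with values between −0.71 and 0.98. The part of the matches in these responses was not tested.

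Between sorted and unsorted cells fewer members differed. In SN vs UN, 1 gene of the ER folding arm was called higher (Ern1) and 0 lower, and in the ATF4 arm Stc2 was called higher and Aldh1l2 lower, beside 3.2% higher and 7.57% lower among all genes. In SH vs UH, Ern1 was called higher and Aldh1l2 lower, beside 7.65% and 5.35% of all genes. At an unadjusted p under 0.05, SN vs UN had 2 genes of the ER folding arm higher and 9 lower. The ATF4 arm had 3 higher and 5 lower, and of all genes 16.7% were higher and 25.9% lower. By that measure SH vs UH had 4 higher and 6 lower in the ER folding arm and 3 higher and 2 lower in the ATF4 arm, beside 33.9% and 15.9%. The medians of the ER folding arm were −0.20 in SN vs UN and, for SH vs UH, −0.06, and those of the ATF4 arm were 0.22 and 0.05. Medians over all genes were −0.06 and 0.17. Pdia6 and Calr had lower values in SN than in UN without reaching the fold threshold (−0.71 and −0.56, adjusted p = 2.0e-04 and 0.0036).

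Further genes of these pathways were compared as lists. For all lists below, the shares of all genes called higher and lower were 5.46% and 11.8% in UH vs UN and 7.47% and 5% in SH vs SN. They were 3.2% and 7.57% in SN vs UN, and 7.65% and 5.35% in SH vs UH. Among 29 other ER folding, ERAD and translocation genes tested, 4 were called higher and 0 lower in UH vs UN, while SH vs SN had 2 higher and 0 lower. At an unadjusted p under 0.05, 8 were higher and 13 lower in UH vs UN, beside 15% and 37.7% of all genes, and SH vs SN had 5 higher and 6 lower, beside 25.5% and 22.9%. The first was Ero1l, the oxidase that recharges disulfide isomerases, which had log2 fold changes of 5.51 and 5.495 (means of 15.2 TPM in UN, 746 in UH, 15.2 in SN and 751 in SH). P4hb, a disulfide isomerase and subunit of prolyl 4-hydroxylase, had changes of 2.58 and 2.79 (means of 1144, 6834, 790 and 5532 TPM). The median of this list was −0.26 in UH vs UN and, for SH vs SN, −0.11. In SN vs UN, 5 of these genes were called lower, led by Vimp (−1.74) and Sec61b (−1.73), and in SH vs UH 6 were lower, led by Pdia5 (−2.32), and 1 was higher.

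Among 24 other ATF4 targets, 3 were called higher and 1 lower in UH vs UN, beside 5.46% and 11.8% of all genes. SH vs SN had 8 higher and 1 lower, beside 7.47% and 5%. Vldlr, a lipoprotein receptor also known to respond to HIF, led both (3.86 and 3.29), followed by Mthfd1l, a mitochondrial one-carbon enzyme (2.93 and 1.97). Eif4ebp1, which restrains cap-dependent translation, had changes of 1.96 and 1.18. Cbs, of the transsulfuration pathway, was lower in UH vs UN (−1.87), and Gdf15, a secreted stress cytokine, was lower in SH vs SN (−1.06). The list had medians of 0.33 and 0.71. In SN vs UN 1 was higher (Gdf15, 3.34) and 2 lower (Bcat1 and Pycr1), near the 3.2% and 7.57% of all genes. In SH vs UH 6 were higher and 4 lower, beside 7.65% and 5.35% of all genes.

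None of the upstream kinases was called. Of 7 genes of the eIF2α kinases, their substrate, its exchange factor and a phosphatase subunit, 0 were called by limma in any of the 5 comparisons. Among all genes, 3.2% to 8.08% were called higher and 2.18% to 11.8% lower, so 0 of 7 is not read as a result. At an unadjusted p under 0.05, 0 were higher and 3 lower in UH vs UN, beside 15% and 37.7% of all genes. SH vs SN had 1 and 3, beside 25.5% and 22.9%. Eif2ak3, which encodes PERK, ranged from 9.98 to 21.9 TPM. Of 12 cytosolic tRNA synthetases, which ATF4 is known to regulate, 0 were called in any comparison. At an unadjusted p under 0.05, 4 and 7 of them were higher in the hypoxia comparisons, beside 15% and 25.5% of all genes. Their medians were 0.11 and 0.32.

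Among 11 other ER stress sensors and processing factors, 1 was called lower in UH vs UN (Atf6b) and 2 were higher in SH vs SN. Creb3l1, a relative of ATF6, was higher in SH vs SN (1.42) and lower in sorted cells than in unsorted ones (−2.24 in SN vs UN and, for SH vs UH, −1.63). Of 9 mitochondrial chaperones and proteases, Lonp1 was higher in both hypoxia comparisons (1.86 and 1.57) and Hspd1 lower (−1.40 and −1.36). Of 8 cytosolic heat shock genes, 0 were called higher in either hypoxia comparison. With 5.46% and 7.47% of all genes called higher, this is not read as a result. At an unadjusted p under 0.05, 1 and 0 were higher and 3 and 4 lower. Of all genes 15% and 25.5% were higher and 37.7% and 22.9% lower by that measure. Hsph1 was called lower in both (−1.50 and −1.24), and Hspb1 in SH vs SN.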

How the data were processed

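RNA from BN1-Tie2-EGFP cells was prepared with a stranded mRNA kit and sequenced as paired ends. The authors processed reads with nf-core/rnaseq 3.12.0 and deposited 1 table of TPM per gene and library from its Salmon step. Per the labels the build is mm10, and the annotation release, strand setting and depth per library are not given in the sources used here. The study's own test used DESeq2 on counts, whereas TPM are not counts and were tested with limma 3.58.1 in R 4.3.3, on log2(TPM + 1), with variances moderated towards a trend on mean expression. The 18909 genes with a mean of at least 0.1 TPM were fitted with a mean for each group, with no replicate block, and p-values were adjusted over all of them within a comparison. Calls required an adjusted p under 0.05 and an absolute log2 fold change above 1. The comparisons were UH vs UN, SH vs SN, SN vs UN, SH vs UH and (SH − SN) − (UH − UN). UH vs UN shares libraries with SN vs UN and with SH vs UH, as does SH vs SN.

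Identifiers were matched to GENCODE M21, an annotation of GRCm38 (98.8% found), for coordinates and exon overlaps, which 12 of the 38 genes have with other models. Promoter windows are those of RefSeq. Groups were taken from the titles. The 38 genes, the lists and the alternatives were chosen with earlier results of these data known. All 38 genes were named, with each library's value for those called and for Hspa5, Xbp1 and Atf4. Of the other lists up to 3 called genes in each direction were named, and Eif2ak3, Creb3l1 and marker genes were added after their values were seen. The fit was tested on simulated data. Tables and plots came from Python 3.11.15, pandas 2.3.3 and matplotlib 3.10.9. Read-level data were not analysed here.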

Additional observations from a re-analysis of the deposited data

Results flagged for a closer look

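By the interaction test in limma, hypoxia responses of sorted and unsorted cells differed for 9 genes of the arms and further stress lists. Of 17 genes of the ATF4 arm 0 were called higher and 2 lower, and of 24 other ATF4 targets 4 and 1. The 29 other ER folding genes and the 8 cytosolic heat shock genes each had 0 higher and 1 lower. The 21 genes of the ER folding arm and the remaining stress lists had 0 called. The number 9 is not read as a result about stress genes. Among all genes tested, 8.08% were called higher and 2.18% lower by this test. Of the hypoxia check genes it also called Slc2a1 lower. Of the marker genes it called Hnf4a, Krt8 and Vwf higher and Acta2 and Pdgfrb lower. Among the 38 members it called Nupr1 (a log2 difference of −1.89 ± 0.46, SE, adjusted p = 0.013) and Stc2 (−1.71 ± 0.22, adjusted p = 4.7e-04), both with the smaller response in sorted cells. Leaving out SH 3, in which Stc2 was lowest of its group, did not end the call for either gene, nor did leaving out any other single library, but the adjusted p of Nupr1 was 0.072 with no filter on low values.

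Among the further lists, Slc38a2, a neutral amino acid transporter, had a difference of −1.38 (adjusted p = 0.0011). Pdia5, a disulfide isomerase, had one of −1.35 (adjusted p = 0.0035), and Hspb1, a cytosolic small heat shock protein, had one of −1.25 (adjusted p = 0.0021). The difference, which compares responses and not levels, was positive for Cbs (2.56, adjusted p = 0.026) and Cth (1.76, adjusted p = 4.2e-04), which together make cysteine from homocysteine. The same held for Pycr1 (1.61, adjusted p = 8.5e-04), which makes proline, and Slc7a5 (1.504, adjusted p = 2.3e-04), the large neutral amino acid transporter. Cbs was called lower in UH vs UN (−1.87), and Pycr1 was called lower in SN vs UN and higher in SH vs SN. Levels of Cbs and Cth were low, with group means of at most 8.91 and 8.75 TPM. The median of this difference over all genes was 0.25, and 0.02 after median-of-ratios scaling.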

How the results depend on the processing

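Of 28 called pairs of a gene and a comparison, 23 kept the call under every alternative, 5 lost it under at least 1, and 0 reversed. The 5 are Hyou1 and Ppp1r15a in UH vs UN, Ern1 in both comparisons of sorted with unsorted cells, and Nupr1 in the difference of responses. Of 162 uncalled pairs, 16 were called under at least 1 alternative and 52 changed sign. The counts for the hypoxia comparisons of the ATF4 arm stayed within 1.5 times under all alternatives. The alternatives were 2 other scalings, a pseudocount of 0.1, no filter or a filter at a mean of 1 TPM, moderation without a trend, rescaling without mitochondrially encoded transcripts, a fit of the compared groups alone (no value for the difference of responses), a replicate block and leaving out libraries. Where a call changed, the cause was not tested.

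For the ER folding arm in UH vs UN, 3 genes were higher and 0 lower with median-of-ratios scaling (Hsp90b1, Xbp1 and Dnajb9), and 2 and 0 with quantile normalization. In SH vs UH 0 were higher under both scalings. Leaving out 1 library gave 0 to 1 higher in SH vs SN, SN vs UN, SH vs UH and the difference. For the ATF4 arm in SN vs UN, 2 were higher with median-of-ratios scaling and 1 to 2 without 1 library, and in SH vs UH 2 were lower with that scaling. In the difference 0 to 1 were higher without 1 library, and 1 was lower with no filter on low values, where Nupr1 had an adjusted p of 0.072 and Ppp1r15a in UH vs UN one of 0.064. In SH vs UH, Atf3 (1.49, adjusted p = 0.064) was called in the fit of the compared groups alone, which gave 1 higher gene in the arm. Without UN 1, SN 3 and SH 3, chosen after seeing the data, 1 gene of the ER folding arm was higher in SH vs SN. The ATF4 arm then had 2 higher and 2 lower in SN vs UN, 1 higher in SH vs UH, and in the difference 2 higher and 4 lower.

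With the replicate block, 1 gene of the ATF4 arm was higher in SH vs UH, Atf3 with an adjusted p of 0.047, and no other count of calls moved. The numbers did not pair the libraries: correlations of the deviations of same-numbered libraries ran from −0.12 to 0.14, 1 of 18 was over 0.1, and 3 of 12 libraries correlated best with their own number. Depth is unknown, so counting error cannot be given, which bears most on Aldh1l2 in SN.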
